A study of Mus musculus with 6 samples.

Results

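Naloxone was set against control in cultured mouse neural stem cells and in cells differentiated from them, using 4 of the 6 RNA-seq libraries of the study: a naloxone and a control library of each state. The libraries were chosen by their labels alone. All came from cells of strain OG2 at passage 8, a strain that carries a GFP transgene under regulatory sequences of Pou5f1. The stem cell libraries are called NSC and the differentiated ones D2, after the label of the differentiated samples. The remaining libraries, 1 of each state, were grown with the μ-opioid agonist DAMGO, and they entered the test described below as well as being printed beside the naloxone values. Each of the 6 groups had 1 library. The labels gave no dose, no time of exposure and no statement on separate cultures, so every p-value measures the spread between these libraries only, which may be technical. In the test over both states, that spread includes any difference between NSC and D2 in the change with a ligand. No test was possible within a state.

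Naloxone is an antagonist that binds opioid receptors, of which the μ receptor Oprm1 is its best known target. Opioid receptors couple to inhibitory G proteins and, in neural progenitors, act on ERK signalling and growth. Neural stem cells grow in the presence of growth factors and, when these are withdrawn, leave the cell cycle and turn on genes of astrocytes, oligodendrocyte precursors or neurons.

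The 4 libraries held 8417074 (D2 naloxone) to 13561237 (NSC naloxone) expected counts over genes, and the DAMGO libraries 8809642 to 9112916. Levels are given as CPM, counts scaled to the same library size and scaled by trimmed mean of M-values factors of 0.993 to 1.007. Of 29267 gene identifiers, 13216 had a mean expected count of at least 10 over the 6 libraries and were tested. The labelled cell type was met by its markers: Nes was at 1823.5 CPM in NSC control and 1855.1 in NSC naloxone, and at 394.7 and 411.3 in the D2 libraries, while Sox2 lay between 367.4 and 632.1 CPM in all 4. Mki67, a marker of cycling cells, was at 1531.5 CPM in NSC control and 22.4 in D2 control. Of the markers of other cell types, 1 of 10 microglial, 2 of 10 endothelial and 10 of 14 fibroblast and pericyte genes passed the filter. The D2 control stood apart from both other D2 libraries for a group of matrix and secreted genes: Spp1 was at 61.0 CPM there against 0.354 with naloxone and 0.340 with DAMGO. Every D2 difference of that group rests on that control library, and the DAMGO value is given beside it.

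Over both states together, 2 genes passed edgeR's quasi-likelihood test with Benjamini-Hochberg adjustment, or 0.0151% of those tested, 1 in each direction (0.00757% each). The gene without a symbol ENSMUSG00000103627 rose with naloxone, and the predicted gene Gm28042 fell. ENSMUSG00000103627 had 0 counts in both controls, 38 in NSC naloxone and 44 in D2 naloxone, at least 25.8-fold higher when both states are pooled and the controls are set at 3 counts. Its adjusted p in edgeR's quasi-likelihood test was 0.0193, and the DAMGO libraries held 15 and 14 counts. Gm28042 (ENSMUSG00000033852, mm10 chr2:120027493-120043033, plus strand, annotated as protein coding) had 41 counts in NSC control, 89 in D2 control and 0 in both naloxone libraries, at least 45.8-fold lower on the same floor. Its adjusted p was 0.0141 in edgeR's quasi-likelihood test, and both DAMGO libraries also held 0 counts. Fractional expected counts in both genes show that RSEM shared some of their reads out among features, which makes their levels uncertain. At an unadjusted p under 0.05 there were 293 genes, or 2.22%. Leaving out a library moved the number called to between 1 and 74, as listed under the dependence on processing.

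Within each state the change was described by the ratio of naloxone to control CPM with its 95% counting interval, which covers counting error only and not differences between cultures. In NSC, 118 genes (0.893%) were at least 1.5-fold higher and 88 (0.666%) at least 1.5-fold lower with an interval that left out 1, or 1.56% in all. In D2 the numbers were 253 (1.91%) and 151 (1.14%), or 3.06% in all. Abundant genes moved little in NSC: of 8074 genes with a mean of at least 20 CPM in that state, 0 were past 1.5-fold higher and 2 lower (0.0248%), and 99.0% lay within 1.2-fold. Those 2 were Gm20721, at 265.3 CPM in control and 153.5 with naloxone, and ENSMUSG00000103888, at 40.8 and 13.8, both with divided reads and both named after their values were seen. In D2, 27 of 7914 abundant genes were past 1.5-fold higher (0.341%) and 8 lower (0.101%), and 91.5% lay within 1.2-fold. The DAMGO comparison in D2 shares this control library, so the part of that library in these counts cannot be told apart from the ligand. Among the 2599 genes of at least 100 CPM the SD of the log2 ratio was 0.065 in NSC, where counting alone would give 0.050, and 0.150 in D2, where counting would give 0.057.

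The direction of change had little in common between the 2 states gene by gene. Across 8272 genes of at least 20 CPM over the 4 libraries, Pearson's r between the NSC and the D2 log2 ratio was -0.05 and Spearman's coefficient -0.08, and 47.0% of genes had the same sign. These pairs of libraries share no sample, and genes within a library are not independent. Past 1.5-fold in both states were 41 genes (0.31%, beside 1.56% in NSC and 3.06% in D2). Of these, 11 were higher in both (0.0832%) and 9 lower in both (0.0681%). Another 14 were higher in NSC and lower in D2 (0.106%) and 7 the reverse (0.053%), so that opposite directions made up 0.159% of genes. All of the 20 with the same direction had fractional counts, against 42.4% of all tested genes, and 17 of them bore predicted names or none. Their median level was 2.80 CPM, against 33.8 CPM over all tested genes.

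**Figure D1:**
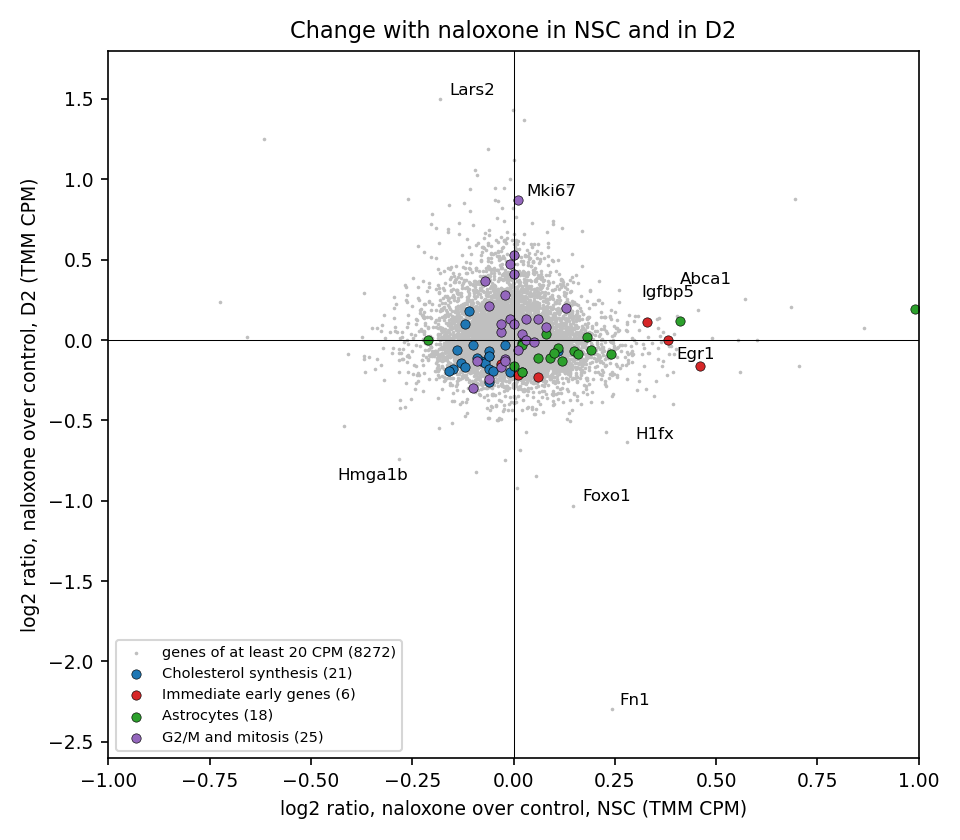
Each point is a gene of at least 20 CPM over the 4 libraries (8272 genes, of which 5 lie outside the axes), with the log2 ratio of naloxone to control CPM in NSC on the horizontal axis and in D2 on the vertical axis, and members of 4 gene lists in colour. The cloud is wider in D2 than in NSC and shows no slope (r = -0.05), the cholesterol genes lie mostly below 0 on both axes, and Fn1, Foxo1, Lars2 and Mki67 stand out in D2.

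Genes of cholesterol synthesis were slightly lower with naloxone in both states. Of 22 tested members, 17 had a ratio below 1 in NSC and in D2 (77.3%, against 24.4% of all tested genes). In both states 0 were above 1 (against 23.1% of all). The median log2 ratio was -0.07 in NSC and -0.14 in D2, against a median of 0 for all genes. In 10 of the 22 the counting interval lay below 1 in both states, against 0.605% of all tested genes and 1.06% of the 5958 genes of at least 40 CPM, a level reached by 21 of the 22. None was past 1.5-fold in either state or called by edgeR's quasi-likelihood test (smallest adjusted p = 1), and 2 had an unadjusted p under 0.05.

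The enzymes of the pathway turn acetyl units into sterols, and its regulators follow them here. Hmgcs1, which makes HMG-CoA, was at 1597.5 CPM in NSC control and 1530.1 with naloxone, and at 1197.3 and 1114.2 in D2. The ratio was 0.939 to 0.978 by its interval in NSC and 0.906 to 0.956 in D2, so the naloxone library was below control in both states. Mvk, mevalonate kinase, was at 70.4 against 63.5 CPM in NSC and 65.8 against 57.9 in D2, a combined edgeR log2 change of -0.17 with an SE of 0.07 (unadjusted p = 0.0416, adjusted p = 1). Fdft1, which makes squalene, was at 228.7 against 204.1 CPM in NSC and 218.1 against 191.5 in D2, with an edgeR log2 change of -0.18 and an SE of 0.06 (unadjusted p = 0.0130, adjusted p = 1). Msmo1, a demethylating oxidase late in the pathway, went from 276.3 to 251.9 and from 156.0 to 141.3 CPM. Insig1, which holds the sterol sensor in the endoplasmic reticulum and is itself a target of SREBP factors, was at 413.4 against 374.4 CPM in NSC and 193.7 against 185.7 in D2. The D2 interval of Insig1, 0.896 to 1.02, included 1. Srebf2, the factor that drives the pathway, was at 529.0 against 507.4 and 450.4 against 420.7 CPM. Members that lay above control were Pmvk, Mvd and Ebp in NSC and Hsd17b7 and Sc5d in D2. Removing the trend of the ratios on GC content and transcript length left 16 of 22 below in both states, with medians of -0.07 and -0.14. The DAMGO libraries, set against the same controls, had list medians of -0.03 in NSC and -0.07 in D2, so a part of each difference that lies in the control library cannot be told apart from the ligand.

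The promoters of these genes are shown because SREBP-2 works at them together with NF-Y, which binds the CCAAT box. RefSeq promoters (build GRCm38.p6, 250 bases before to 50 after the start) were found for 15 of the 23 listed genes. All 15 held CCAAT on either strand (ATTGG on the other) in at least 1 promoter, against 41.1% of 27025 genes with a promoter in the table. The sterol element searched as TCACNCCAC on either strand was found in 1 of them, Hmgcs1, and in 1.44% of all genes. These letters describe the window and show no binding. Capitals mark the matches in 3 members, Hmgcs1 with the sterol element, Mvk with 5 CCAAT matches and the SREBP target Insig1, at chr13:119690101-119690400, chr5:114444019-114444318 and chr5:28071162-28071461, all on the plus strand.
Hmgcs1: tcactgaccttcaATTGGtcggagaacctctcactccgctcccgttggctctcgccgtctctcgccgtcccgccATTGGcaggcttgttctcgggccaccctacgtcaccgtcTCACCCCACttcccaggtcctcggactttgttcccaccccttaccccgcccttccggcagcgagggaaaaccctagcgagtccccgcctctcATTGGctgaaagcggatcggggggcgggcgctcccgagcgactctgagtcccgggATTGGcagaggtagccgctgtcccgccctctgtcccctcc
Mvk: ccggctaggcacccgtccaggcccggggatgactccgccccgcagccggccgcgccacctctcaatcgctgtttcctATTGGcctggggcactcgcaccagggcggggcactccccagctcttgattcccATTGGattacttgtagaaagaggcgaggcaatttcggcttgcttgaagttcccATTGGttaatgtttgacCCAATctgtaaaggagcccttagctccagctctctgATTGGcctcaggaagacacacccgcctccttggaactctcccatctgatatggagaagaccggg
Insig1: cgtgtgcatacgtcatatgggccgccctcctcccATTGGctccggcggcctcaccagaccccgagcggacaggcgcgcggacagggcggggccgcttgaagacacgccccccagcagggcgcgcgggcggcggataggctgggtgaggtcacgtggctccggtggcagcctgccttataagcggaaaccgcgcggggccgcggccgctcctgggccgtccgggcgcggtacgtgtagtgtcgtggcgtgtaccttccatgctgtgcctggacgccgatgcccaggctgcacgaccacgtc

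**Figure D2:**
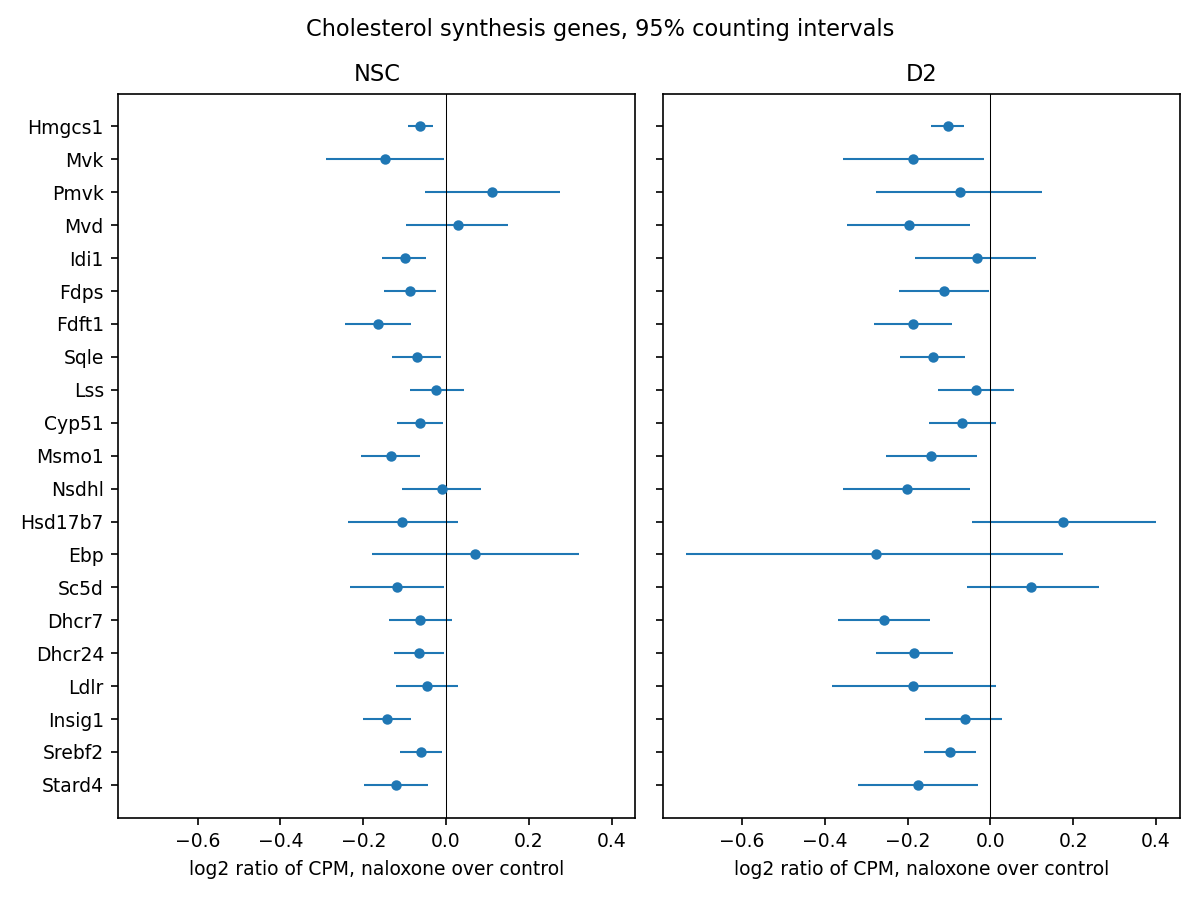
Log2 ratio of naloxone to control CPM for 21 of the 22 tested cholesterol synthesis genes, NSC on the left and D2 on the right, with bars for the 95% counting interval of 1 library against 1. Most points lie left of 0 in both states, and the intervals of 9 of the genes drawn lie wholly below 0 in both.

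Genes averaging at least 20 CPM over the 4 libraries were ranked by the smaller of both log2 ratios where these had the same sign. Abca1, the transporter that exports cholesterol from cells (ENSMUSG00000015243, mm10 chr4:53030787-53159895, minus strand), was the highest. It was at 8.22 CPM in NSC control and 10.8 with naloxone, and at 153.0 and 191.7 in D2, while the DAMGO libraries were at 7.72 and 157.6. The edgeR log2 change was 0.34 with an SE of 0.08 (unadjusted p = 0.00107, adjusted p = 1), so naloxone was above control in both states without passing the test. Nrbp2, a pseudokinase, was at 21.2 against 25.4 and 101.8 against 119.9 CPM, with DAMGO at 25.6 and 126.6. Parvb, an adhesion adaptor that binds integrin-linked kinase, was at 6.80 against 10.2 and 31.1 against 37.1 CPM. Ikbip, Fam92a, Mfsd4a, Galk2, the ryanodine receptor gene Ryr3, the antisense gene Prss23os and Vwa5a completed the 10 highest. On the TPM scale with a pseudocount of 1, Fam92a was no longer above control in NSC (log2 ratio -0.04).

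The 10 lowest by the same rule were Hmga1b, Snrpg, Scand1, Gfod2, Tsc22d3, Vps37c, Ccdc85b, Tbc1d17, Mtpap and Spp1. The last of these rests on the D2 control described above. On the TPM scale Tbc1d17 was not below control in NSC (log2 ratio 0.04). Tsc22d3, a glucocorticoid-induced leucine zipper gene, was at 12.4 against 10.4 CPM in NSC and 35.8 against 27.8 in D2, with DAMGO at 10.8 and 34.4. Snrpg, a core protein of spliceosomal snRNPs, was at 41.9 against 34.5 and 34.1 against 26.3 CPM, but its reads were divided with other features. Hmga1b, a near copy of the chromatin protein gene Hmga1, was at 63.9 against 52.5 and 29.5 against 17.6 CPM. Its sign turned on the TPM scale with a pseudocount of 1, where the log2 ratio was 0.27 in NSC and 0.90 in D2, and the cause was not tested. Hmga1 itself was at 113.5 against 125.4 and 60.2 against 56.7 CPM.

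In NSC the genes above control included immediate early genes, which are switched on within minutes of growth factor or calcium signals. Of 24 tested members, 20 were above control in NSC (83.3%, against 48.7% of all tested genes), with a median log2 ratio of 0.12, and 11 were above in D2 (median -0.03). With the GC and length trend removed, 19 were above in NSC (median 0.11) and 16 in D2 (median 0.04). Egr1, a zinc-finger factor, was at 285.8 CPM in NSC control, 372.1 with naloxone and 282.7 with DAMGO, a ratio of 1.24 to 1.36 by its interval. In D2 it was at 21 CPM in both control and naloxone, and 22.3 with DAMGO. Fos was at 31.1, 42.7 and 34.0 CPM in the NSC libraries in the same order, and at 3.73, 3.31 and 5.32 in D2. Among the NSC libraries, naloxone was the highest for both genes. Fosb was the member past 1.5-fold in NSC, at 4.06 CPM in control, 8.36 with naloxone and 4.41 with DAMGO (43, 113 and 40 counts). Btg2, an antiproliferative gene, was at 37.1 against 46.7 CPM in NSC and 280.2 against 301.6 in D2, the only member whose interval lay above 1 in both states. In NSC the interval lay above 1 for 4 of the 24 members (16.7%, against 4.0% of all tested genes) and below 1 for 0. Most members, among them Jun, the partner of Fos, and Arc, a synaptic gene, had NSC intervals that included 1. In D2, Fosl1 (3.34 against 1.54 CPM) and Maff (2.75 against 1.18) were past 1.5-fold lower, on 13 and 10 counts with naloxone. The smallest adjusted p of the list in edgeR's quasi-likelihood test was 1.

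Astrocyte genes lay mostly above control in NSC. There 19 of 20 had a ratio above 1 (48.7% of all tested genes did), with a median log2 ratio of 0.10. In D2 6 of 20 were above (50.0% of all), with a median of -0.06, which became -0.01 with 8 above once the GC and length trend was removed. Most differences were small: Apoe had 470 counts in NSC control and 686 with naloxone (interval 1.01 to 1.29), and Fgfr3, a growth factor receptor of the astrocyte lineage, 1459 and 2080 (1.04 to 1.19). Aqp4, the water channel, was past 1.5-fold in NSC on 10 and 28 counts. In D2 the counting interval lay below 1 for 12 of the 20 (60.0%, against 10.3% of all tested genes) and above 1 for 2. The summed level of the list was 20042.4 CPM in D2 control, 19052.8 with naloxone and 19491.7 with DAMGO. Gfap, the astrocyte filament, went against its list in D2. It was at 6.87 CPM in D2 control, 11.3 with naloxone and 10.9 with DAMGO, so both D2 ligand libraries lay above the control. Its edgeR log2 change for naloxone was 0.74 with an SE of 0.28 (unadjusted p = 0.0219, adjusted p = 1). In bulk RNA a change in the number of such cells and a change in RNA per cell cannot be told apart.

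Among genes averaging at least 20 CPM over the 2 NSC libraries, the highest ratios in NSC were those of Fos, Igfbp5, Ptges2, Egr1, Pmm2, Timmdc1, Camk2d, Pibf1, Pnpla2 and Ubxn2a. Igfbp5, a secreted IGF-binding protein, was at 27.3 CPM in NSC control, 37.5 with naloxone and 36.8 with DAMGO, and at 136.7, 155.6 and 131.7 in D2. Camk2d, a calcium/calmodulin-dependent kinase subunit, was at 24.9, 31.7 and 29.3 CPM in NSC and 60.3, 59.7 and 57.7 in D2. The lowest were Tmem121, Ppp2r3d, Adi1, Cyp20a1, Golph3l, Zfp668, Ramac, Cog1, Mios and Krit1. Mios, a part of the GATOR2 complex that feeds amino acid signals to mTORC1, was at 48.1 against 39.1 CPM in NSC and 26.4 against 29.1 in D2.

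In D2, ranked in the same way over its control and naloxone libraries, the named genes had larger ratios, and for Lars2, Arhgap5 and Mki67 the DAMGO library lay between control and naloxone. Lars2, the mitochondrial leucyl-tRNA synthetase (mm10 chr9:123366927-123462666, plus strand), was at 105.9 CPM in control, 300.3 with naloxone and 149.5 with DAMGO, and at 96.5, 85.1 and 96.8 in NSC. Gm42418, a predicted RNA on chromosome 17 with divided reads, was at 535.0, 1380.9 and 952.4 CPM in the D2 libraries and at 249.7, 254.3 and 221.4 in NSC, and it was named after its values were seen. Arhgap5, a GTPase-activating protein, was at 17.2, 33.2 and 26.6 CPM in D2. Others among the 10 highest were Mki67, Zfp932, Mpp5, Odr4, Zdhhc20, Ssb and Zfp292. Foxo1, a forkhead factor held back by insulin and AKT signalling, was among the lowest, at 61.0 CPM in D2 control, 29.8 with naloxone and 21.7 with DAMGO. It was at 20.2, 22.4 and 22.2 CPM in NSC, so the D2 control alone was high. The lowest also held Spp1, Fn1, Hmga1b, Ccdc85c, H1fx, Romo1, Sac3d1, Pcdhb9 and Pfdn6. H1fx, a linker histone, was at 62.6 against 40.2 CPM in D2 and 53.4 against 64.9 in NSC, and its transcript had 71.3% GC.

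Genes of mitosis and DNA replication had medians near 0 in NSC and somewhat above 0 in D2, while most G1 regulators lay below control in D2. Of 25 genes of G2 and mitosis, 17 were above control in D2 (68.0%, against 50.0% of all genes) with a median log2 ratio of 0.10, and 11 in NSC with a median of -0.01. Mki67 (mm10 chr7:135689784-135716361, minus strand) was the member past 1.5-fold, at 22.4 CPM in D2 control, 41.1 with naloxone and 29.8 with DAMGO, and at 1531.5, 1546.2 and 1475.1 in NSC. Its edgeR log2 change over both states was 0.27 with an SE of 0.13 (unadjusted p = 0.0627, adjusted p = 1). Cenpf, a kinetochore protein, was at 6.96 against 10.2 CPM in D2 and Top2a, a topoisomerase of dividing cells, at 81.9 against 99.3. Ccnb1 and Cdk1, the mitotic cyclin and its kinase, were not above control in D2 (344 counts against 452, and 248 against 337, in libraries of 8417074 and 10218353 counts), and their intervals included 1. With the GC and length trend removed the D2 median was 0.05. The 26 genes of DNA replication had medians of -0.01 in NSC and 0.08 in D2, with 18 above control in D2. Of 20 G1 cyclins and CDK inhibitors, 15 were below control in D2 (against 50.0% of all genes, median -0.08, or -0.04 with 12 below after removal of the trend). The DAMGO library, set against the same D2 control, had a median of -0.09 for this list. The part of that control in the G1 values cannot be told apart from the ligand. Ccnd1, the G1 cyclin, was at 2631.8 against 2610.1 CPM in NSC and 149.7 against 145.9 in D2.

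Feedback genes of ERK signalling lay mostly below control in D2 and near it in NSC. Of 16 members, 12 were below in D2 (50.0% of all tested genes were) with a median log2 ratio of -0.13, or -0.12 with the GC and length trend removed. In both states 0 were above (23.1% of all were). Etv5, an ETS factor downstream of FGF and ERK, was at 297.7 CPM in D2 control, 220.5 with naloxone and 254.1 with DAMGO, and at 585.4, 584.2 and 576.6 in NSC. Its edgeR log2 change was -0.21 with an SE of 0.08 (unadjusted p = 0.0303, adjusted p = 1). Dusp6, the ERK phosphatase, was at 56.2, 45.1 and 56.2 CPM in D2, so only naloxone was low. Errfi1, an inhibitor of the EGF receptor, was at 23.6, 16.3 and 16.7 CPM. Rasa2, Spred1, Etv1 and Spry4, regulators of or factors under the same pathway, lay above control in D2. The D2 counting interval lay below 1 for 7 of the 16 (43.8%, against 10.3% of all tested genes). It lay above 1 for 3 (18.8%, against 10.7%), so the list went both ways. Among all tested genes of at least 40 CPM these shares were 16.2% and 15.4%. None was past 1.5-fold. The DAMGO library, set against the same D2 control, had a list median of -0.09. The part of the difference that lies in the control library therefore cannot be told apart from the ligand.

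Of 15 tested genes of the oligodendrocyte lineage, 13 were below control in D2 (50.0% of all tested genes were), with a median log2 ratio of -0.13. Without the GC and length trend 9 were below, with a median of -0.05. In NSC 10 were above control (66.7%, against 48.7% of all tested genes), with a median of 0.09. The counting interval there lay above 1 for 2 of the 15 and below 1 for 1. Mbp, a myelin protein gene, was past 1.5-fold higher in NSC on 3 and 19 counts. Pdgfra, the growth factor receptor of oligodendrocyte precursors, was at 414.0 CPM in control, 351.4 with naloxone and 366.5 with DAMGO. Sox10, the lineage factor, was at 31.6, 24.3 and 28.7 CPM, and Nkx2-2 at 20.3, 15.0 and 17.9. For each of these the control was the highest of the 3 D2 libraries. Neuronal genes had medians of -0.03 in NSC and 0.02 in D2, and Tubb3, the neuronal tubulin, was at 13.0 against 10.3 and 107.3 against 99.0 CPM.

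**Figure D3:**
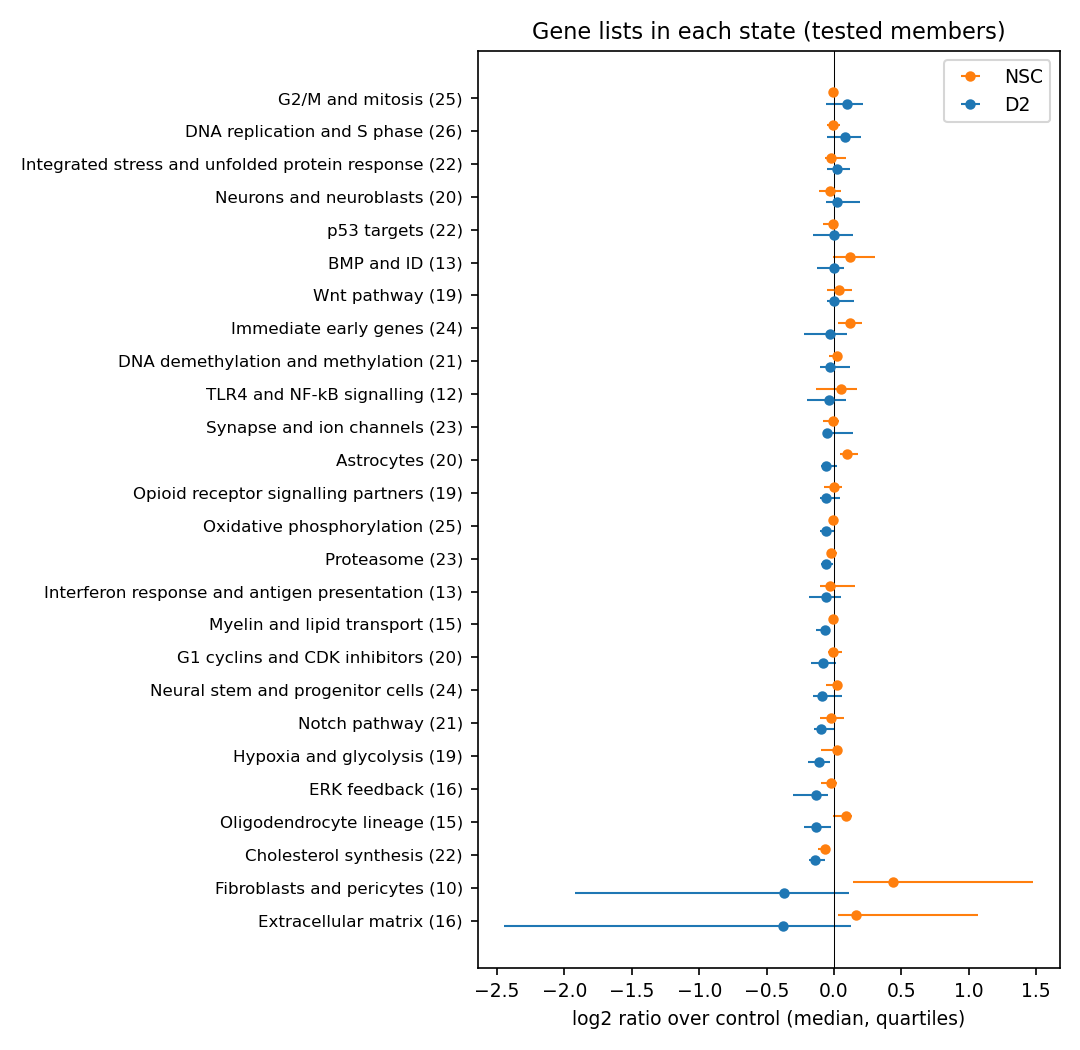
Median log2 ratio of naloxone to control for each list with at least 10 tested members (number in brackets), orange for NSC and blue for D2, with bars from the lower to the upper quartile of the members. Cholesterol synthesis lies below 0 in both states (-0.07 and -0.14), immediate early genes and astrocyte genes lie above 0 in NSC, and the matrix and fibroblast lists have medians of opposite sign in the 2 states.

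The D2 naloxone ratios followed the base composition of the transcripts. Pearson's r between GC content and the log2 ratio over 8249 genes was -0.46 in D2 and 0.15 in NSC, and -0.15 and -0.11 for DAMGO in the same states. The median log2 ratio in D2 went stepwise from 0.116 in the fifth of genes with the lowest GC (median 43.1%) to -0.104 in the highest (57.9%). The 253 genes higher in D2 had a median GC of 43.7% and the 151 lower ones 54.3%, against 50.5% for all. Removing the trend left 176 higher and 141 lower genes in D2. The part of base composition in single D2 results was not tested beyond these adjusted values: for Mki67 the D2 log2 ratio was 0.87 before and 0.79 after, for Arhgap5 0.94 and 0.57, for Lars2 1.5 and 1.48, for Foxo1 -1.03 and -1.12, and for Cpne3, a copine, 0.34 and 0.06.

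**Figure D4:**
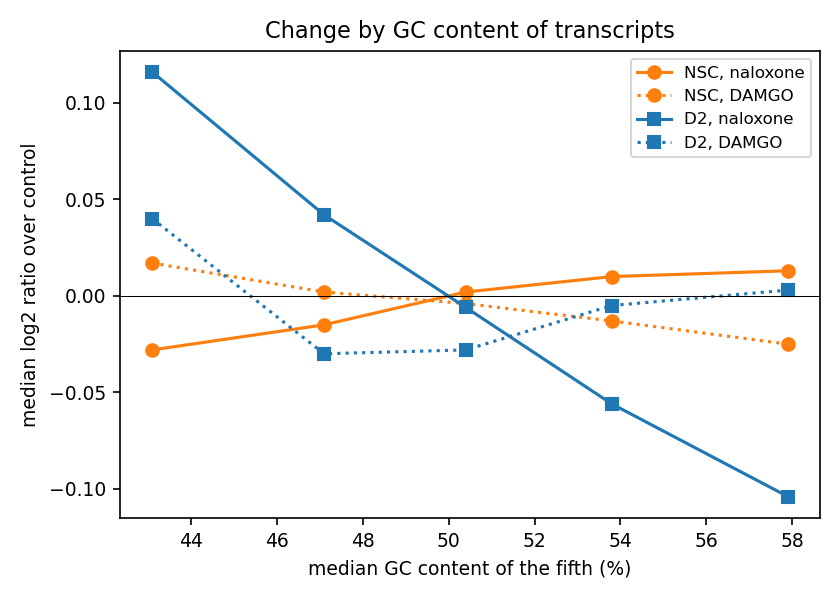
Median log2 ratio over control (vertical axis) in 5 equal groups of genes by transcript GC content (horizontal axis, median of the group in %), for naloxone (solid) and DAMGO (dotted) in NSC (orange) and D2 (blue). The D2 naloxone line runs from 0.116 to -0.104, and the NSC naloxone line from -0.028 to 0.013.

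A subset of matrix genes had opposite ratios in the 2 states. Of 16 tested members, 8 were above control in NSC and below it in D2 (25.5% of all tested genes were). Another 6 were above in both (23.1% of all) and 1 below in both (24.4%). Past 1.5-fold, 6 were higher in NSC (0.893% of all tested genes were) and 0 lower, and 7 were lower in D2 (1.14%) and 0 higher. Only 16 of the 25 listed genes passed the filter. Members such as Col1a2, Col3a1 and Bgn did so only through their counts in the NSC naloxone and D2 control libraries. The filter thus fixed these numbers in part, and the share of all genes is no fair measure for them. Col1a1, a chain of collagen I, had 10 counts in NSC control, 49 with naloxone and 5 with DAMGO, and 49, 7 and 6 in D2. Col1a2, the other chain, had 4, 57 and 0 counts in NSC and 25, 1 and 8 in D2. Col3a1 had 1, 19 and 0 counts in NSC and 40, 3 and 4 in D2. The NSC naloxone and the D2 control library were thus the high ones. Bgn, the proteoglycan biglycan, had 3, 31 and 0 counts in NSC and 50, 3 and 6 in D2. Timp1, an inhibitor of matrix proteases, had 20, 48 and 27 counts in NSC and 41, 2 and 1 in D2. H19, an imprinted noncoding RNA outside the list and named after its values were seen, had 8, 28 and 6 counts in NSC and 137, 31 and 17 in D2. All of these are low in level: Col1a1 reached 3.62 CPM in NSC naloxone and 4.81 in D2 control. Fn1, fibronectin, was more abundant, at 24.1, 28.5 and 24.1 CPM in NSC and 55.4, 11.1 and 10.8 in D2.

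Several genes of the same kind were seen mainly in the D2 control. Spp1, the secreted protein osteopontin, had 622 counts there, 3 with naloxone and 3 with DAMGO, and 115, 125 and 86 in NSC. Mmp3, a matrix protease, had 46 counts in D2 control and 0 in each of the other 5 libraries, at least 12.7-fold above D2 naloxone at a floor of 3 counts. Mgp had 35 counts in D2 control, 0 with naloxone and 1 with DAMGO. Penk, which encodes the precursor of the enkephalins that act on opioid receptors (mm10 chr4:4133531-4138819, minus strand), had 58 counts in D2 control and 0 in both D2 ligand libraries, so the naloxone library was below the control by a factor of at least 16.1. It had 0, 1 and 0 counts in NSC. Of the markers of fibroblasts and pericytes outside the collagens, Dcn and Lum fell below the filter and were not tested. Their few counts lay mostly in the same libraries. Dcn had 0, 6 and 0 counts in NSC and 11, 1 and 0 in D2, while Lum had 0, 3 and 0 and 2, 0 and 0. All 10 tested markers of the list, of which 4 are also in the matrix list, were above control in NSC (median log2 ratio 0.44, against 48.7% of all tested genes above). In D2 7 of 10 were below it (-0.37, against 50.0% below) and 3 above. The counting interval lay above 1 for 3 of the 10 in NSC (4.0% of all tested genes) and below 1 for 4 in D2 (10.3%). The filter bears on this list as on the matrix list. The summed level of the list ran from 265.2 to 296.9 CPM in NSC and from 169.8 to 186.9 in D2. In NSC most of it came from Fbln2 and from Cspg4, which oligodendrocyte precursors also express. The part of such cells in the matrix values was not tested.

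**Figure D5:**
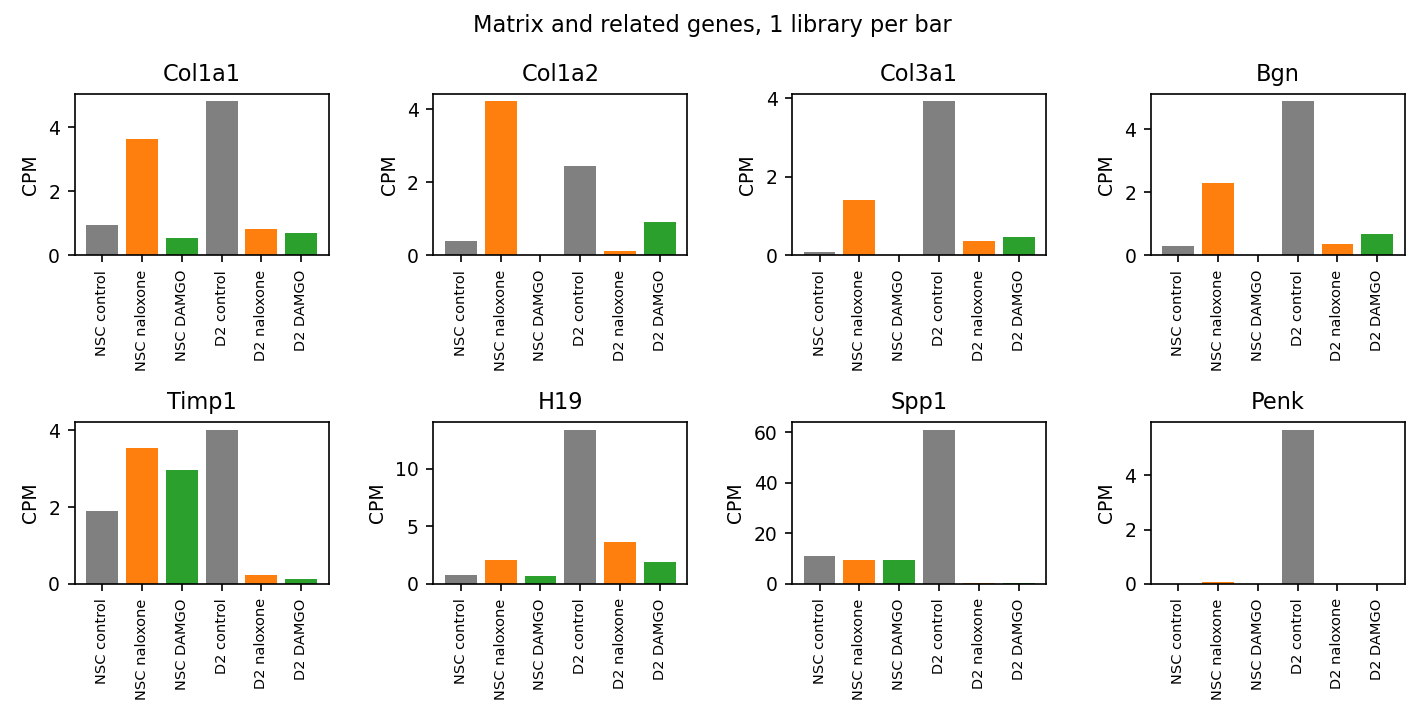
Level in CPM (vertical axis, from 0, scaled per gene) of 8 matrix and related genes in each of the 6 libraries, 1 bar per library. The D2 control bar exceeds both D2 ligand bars in all 8 genes, and for Col1a1, Col1a2, Col3a1 and Bgn the NSC naloxone bar exceeds the other NSC bars.

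The receptor that naloxone is best known for was not detected. Oprm1 had 0 counts in all 6 libraries, which allows up to 0.281 and 0.221 CPM in NSC control and naloxone and 0.294 and 0.356 in D2 at 3 counts. The δ receptor Oprd1 and the κ receptor Oprk1 had at most 1 count in any library. Oprl1, the related nociceptin receptor that naloxone binds poorly, had 27 counts in NSC control and 18 with naloxone (interval of the ratio 0.271 to 0.983), and 196 and 171 in D2 (0.851 to 1.30). Ogfr, the opioid growth factor receptor, which binds met-enkephalin and is blocked by naloxone, was at 80.9 against 81.9 CPM in NSC and 157.8 against 164.6 in D2. Its edgeR log2 change was 0.04 with an SE of 0.07 (adjusted p = 1).

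The TET dioxygenases, which oxidise methylcytosine, had counting intervals that included a ratio of 1 in both states. Tet1 was at 61.4 against 61.7 CPM in NSC and 35.3 against 38.5 in D2, Tet2 at 42.4 against 43.8 and 37.8 against 41.8, and Tet3 at 220.0 against 223.1 and 198.8 against 191.8. Of 21 genes of DNA methylation and demethylation, Gadd45a was past 1.5-fold, at 11 CPM in D2 control, 7.09 with naloxone and 6.56 with DAMGO. Lists of the Notch pathway, hypoxia and glycolysis, oxidative phosphorylation and the proteasome had NSC medians of -0.02 to 0.02 and D2 medians of -0.11 to -0.06. Without the GC and length trend the D2 medians were 0 for Notch, -0.03 for hypoxia and glycolysis, -0.03 for oxidative phosphorylation and -0.05 for the proteasome.

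Other genes averaging at least 20 CPM over the 4 libraries had ratios of opposite sign in the 2 states. Higher in NSC and lower in D2 were Ptges2, Bad, Hsd3b7, Tex264 and H1fx. Bad, a proapoptotic BCL2 family member, was at 14.3 against 18.2 CPM in NSC and 31.6 against 24.8 in D2. Lower in NSC and higher in D2 were Cpne3, Krit1, Trmt10c, Zdhhc4 and Plcb4. Plcb4, a phospholipase C under G-protein-coupled receptors, was at 40.6 against 33.9 CPM in NSC and 8.34 against 15.5 in D2, with DAMGO at 37.3 and 12.6. Krit1, a vascular adhesion gene with 38.3% GC, had a D2 log2 ratio of 0.27 that became -0.01 without the GC and length trend.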

How the data were processed

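RNA was harvested with Trizol and made into TruSeq libraries, per the labels' protocols, and 6 tables, 1 per sample, were analysed. The submitters' processing notes name Bowtie, RSEM and the mm10 build; no version, annotation or strand setting is given in the sources used here. The authors deposited expected counts (estimated reads per gene) and TPM. Expected counts were rounded and tested with edgeR 4.0.16 (R 4.3.3): quasi-likelihood, TMM, state and ligand as additive terms over the 6 libraries, so that naloxone and control are paired by state, with 2 residual degrees of freedom. Within a state, log2 ratios of CPM used a prior count of 2, and 95% intervals were exact binomial (Clopper-Pearson). DESeq2 1.42.0 and limma 3.58.1 (on log2(TPM + 1) and log2(TPM + 0.1)) were alternatives. The edgeR step was tested on simulated data. Coordinates come from GENCODE M21, which held 28756 of 29267 identifiers, and promoter sequences from RefSeq (GRCm38.p6). GC and length values covered 99.4% of tested genes, and that adjustment was chosen after seeing the data.

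The members and the 31 gene lists were chosen with earlier results of these data known. Named genes were those called by edgeR; among genes averaging 20 CPM or more, the 10 highest and the 10 lowest by the smaller of both log2 ratios; the 10 highest and lowest per state; 5 in each opposite direction; up to 4 or more members per list, with others named in the text to show exceptions after their values were seen; and a fixed set of opioid, TET and marker genes. Predicted genes were left out of the ranked names, and a few genes that the rule names are not reported here.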

Additional observations from a re-analysis of the deposited data

Results flagged for a closer look

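Effects of naloxone that went opposite ways in the 2 states were marked for a closer look: 21 genes were past 1.5-fold in one direction in NSC and in the other in D2. With 1 library per group the difference between the states was not tested for any of them. Of the 21 genes, 10 bore predicted names or none. For matrix genes picked from the rest, the D2 log2 ratio minus the NSC log2 ratio was -6.01 for Col1a2, -5.58 for Bgn and -5.36 for Col3a1. It was -4.13 for Timp1, -4.03 for Col1a1 and, outside the matrix list, -3.07 for H19. In each of these named genes, the NSC naloxone library lay above the NSC control, and the D2 control lay above both D2 ligand libraries. Other genes of the 21 are not listed here, so these do not stand for the whole set.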

How the results depend on the processing

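The number of genes called for naloxone moved with the setting. It was 0 with relative log expression size factors (268 at an unadjusted p under 0.05), 0 with limma on log2(TPM + 1) (438) and 0 on log2(TPM + 0.1) (410), 1 with DESeq2 (46), 45 with no filter on low counts and 11 with the 4 control and naloxone libraries alone. Leaving out each library gave 1 (without D2 naloxone) to 74 (without NSC control), with 39 without NSC naloxone, 26 without D2 control, 11 without NSC DAMGO and 9 without D2 DAMGO. Each of these held both genes named in the report except the fit without D2 naloxone, which held neither. A lone library left in an arm is assumed to vary like the others, and the cause of these shifts was not tested. Naloxone and control are paired by state in the model. Beyond that, a replicate block was not fitted, since the labels give no replicate numbers.

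The NSC genes past 1.5-fold numbered 206, the D2 genes past 1.5-fold 404, with 20 in the same direction and 21 in opposite ones. At 2-fold these became 96, 174, 12 and 12; at a log2 ratio of 0.32 they were 372, 1009, 30 and 37; without the demand on the interval 500, 884, 63 and 72; and among genes of at least 20 CPM 2, 35, 0 and 1. With no filter NSC had 320. Higher against lower genes in D2 were 272 and 144 with library totals and with relative log expression factors, and 303 and 140 with TPM and a pseudocount of 0.1. The correlation of both changes was -0.03 and -0.02 with TPM (pseudocounts 1 and 0.1), -0.04 with a prior count of 0.5, -0.02 at 5 CPM, -0.19 at 100 CPM and 0.03 with the GC and length trend removed. With TPM + 1, 11 of 282 single ratios changed sign, 5 of them from a log2 ratio of at least 0.2 in size: Hmga1b in D2 (0.90) and NSC (0.27), Btg3 in NSC (-0.01), Fam92a in NSC (-0.04) and Tbc1d17 in NSC (0.04). Removing the GC and length trend changed the sign of 16 of 276, among them Krit1 in D2 (-0.01). The cause was not tested. Depth limits genes under about 20 CPM, where most genes past the fold lie.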

Other observations

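Btg3, an antiproliferative gene not described above, had 12 counts in NSC control, 33 with naloxone and 77 with DAMGO, and 68, 8 and 4 in D2. Malat1, a nuclear noncoding RNA, was at 826.7, 794.7 and 748.9 CPM in NSC and 277.6, 402.1 and 620.9 in D2. S100a6, a calcium-binding protein gene, had 0, 5 and 0 counts in NSC and 118, 18 and 12 in D2. Tom1, an endosomal adaptor gene with divided reads, had 196, 143 and 282 counts in NSC and 317, 0 and 125 in D2. These genes were named after their values were seen.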
